A study of Mus musculus with 12 samples.

Results

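Intestinal regional identity transcription factors are the DNA-binding proteins that set and hold the character of each stretch of gut epithelium, and 7 of them are described here: Gata4, Gata6, Cdx1, Cdx2, Onecut2, Hnf4a and Hnf4g. They were chosen by name and were found by Ensembl identifier through GENCODE M21 among the 46078 genes counted in the data. All 7 passed the filter on low counts, as did 15823 genes in all. Their levels were read as a check of which segment had been sampled, and as a test of whether that reading moved with dose.

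The samples were epithelial scrapings of the proximal ileum of male C57BL/6 mice, wild type as far as the labels say. The mice were gavaged with sesame oil, or with 3, 10 or 30 µg/kg of the dioxin TCDD, a persistent ligand of the aryl hydrocarbon receptor. Every mouse, vehicle included, was dosed every 4 days, 7 times in all, from 28 days of age, and tissue was taken after 28 days, at 56 days of age. Each of the 4 groups had 3 libraries, described as biological replicates, and RNA was sequenced in 12 libraries in all. A scraping holds every cell the blade lifts, so lamina propria and muscle can be part of it.

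GATA4 marks the upper and middle small intestine and is absent from the terminal ileum, whereas GATA6 is present along the whole small intestine. CDX1 and CDX2 are the homeodomain proteins that hold intestinal identity, and ONECUT2 is a cut-homeodomain factor known from duodenum. HNF4A and HNF4G are nuclear receptors that act as a pair on brush border and lipid genes of the enterocyte.

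The bases before Hnf4a and Cdx2 are shown because the set of RefSeq promoter windows at hand held only these 2 of the 7 factors. They are the 250 bases before a RefSeq start site (GRCm38.p6), 5′ to 3′ on the gene's strand, with matches to AGATAA (the GATA letters) and ATCAAT (ONECUT letters) in capitals. Hnf4a has a further start site downstream, and counts per gene do not separate transcripts of one from the other.
Hnf4a, chr2:163506607-163506856, plus strand: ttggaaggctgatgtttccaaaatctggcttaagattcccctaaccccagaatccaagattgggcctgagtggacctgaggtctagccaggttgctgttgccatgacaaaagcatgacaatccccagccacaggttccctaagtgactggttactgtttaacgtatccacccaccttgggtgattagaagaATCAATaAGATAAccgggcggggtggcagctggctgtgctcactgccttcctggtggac
Cdx2, chr5:147307250-147307499, minus strand: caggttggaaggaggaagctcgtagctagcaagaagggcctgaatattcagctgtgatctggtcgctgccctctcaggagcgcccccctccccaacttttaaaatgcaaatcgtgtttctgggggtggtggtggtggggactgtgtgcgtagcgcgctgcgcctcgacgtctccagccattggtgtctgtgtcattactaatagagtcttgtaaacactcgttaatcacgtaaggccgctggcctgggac
Before the Hnf4a start, ATCAAT began 59 bases and AGATAA 52 bases upstream. Over 32851 RefSeq windows of the same length, searched on both strands, AGATAA was found in 9.99% and ATCAAT in 6.72%. GCGTG, the core letters of the dioxin response element, were found in 28.2% of windows and TTTATG, CDX letters, in 10.8%, and neither was in the windows shown. The Cdx2 window held none of the 4, and neither did the window before the downstream Hnf4a start, which is not shown. The GATA and ONECUT letters were picked with these windows in view, and a match is a description of letters.

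Before any comparison, markers of segment were checked, and they did not all match the label. Total gene counts were 11695887 to 22180274 per library, so that 3 counts were worth 0.139 to 0.267 CPM (the count scaled to the effective size of its library). The 9 markers of epithelium summed to 10600 to 14400 CPM in every library, against 27.5 to 205 for 8 smooth muscle markers and 30.1 to 145 for 7 fibroblast markers. Of the 7 ileal markers, Clec2h (909 to 1443 CPM) and Slc51a (99.1 to 162 CPM), a bile acid exporter subunit, were present in all 12 libraries. So were Slc51b (46.9 to 177 CPM), its partner subunit, and Cubn (158 to 1722 CPM), a vitamin B12 receptor subunit, which was at 1109 to 1452 CPM in vehicle. Fabp6, the ileal bile acid binding protein, was at 38.3, 32.5 and 22.9 CPM in the libraries of 3 µg/kg and at no more than 0.306 CPM in the other 9 libraries, vehicle included. Fgf15, the ileal hormone that answers bile acids, was at 2.11, 1.87 and 1.41 CPM at 3 µg/kg, at most 0.139 CPM in vehicle and at 0 counts in the 6 libraries of 10 and 30 µg/kg. The apical bile acid transporter Slc10a2 was at 16.4, 9.11 and 5.46 CPM at 3 µg/kg and at 0.451 to 2.68 CPM elsewhere. Of the 7, Fabp6 and Fgf15 were thus at or near 0 in 9 of 12 libraries, and Slc10a2 was low there. The other 4 were present throughout, but Cubn was below its vehicle range in most dosed libraries. Cubn was at 1722, 464 and 399 CPM at 3 µg/kg, at 185 to 707 CPM at 10 µg/kg and at 158 to 385 CPM at 30 µg/kg.

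A colonic set of traces stood in another group. Car1, a carbonic anhydrase of colon, was at 55.7, 62.2 and 43.7 CPM at 10 µg/kg and had 0 counts in the 9 other libraries, a level at least 258-fold above what 3 counts in a vehicle library would give. Aqp8, a colonic water channel, was at 4.72 to 5.62 CPM at 10 µg/kg and at most 0.821 CPM elsewhere. Hoxa13, a homeobox gene of hindgut, had 6, 7 and 8 counts at 10 µg/kg and 0 in all other libraries. Hoxb9 was at 1.15, 1.52 and 1.35 CPM at 10 µg/kg and at most 0.679 CPM elsewhere. Each of these traces was present in all 3 libraries of 1 dose, so that dose and any other feature of that group cannot be told apart, and a group could not be kept while its libraries were left out. The 9 pancreatic acinar genes listed summed to 6.77 to 8.52 CPM in vehicle, 0 to 0.117 at 3 µg/kg, 1.90 to 2.47 at 10 µg/kg and 0.274 to 1.42 CPM with 30 µg/kg. Genes of the stomach (12 listed, none past the filter) summed to at most 1.25 CPM. Pdx1, the duodenal and pancreatic homeodomain factor, had 1 to 16 counts per library.

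**Figure D1:**
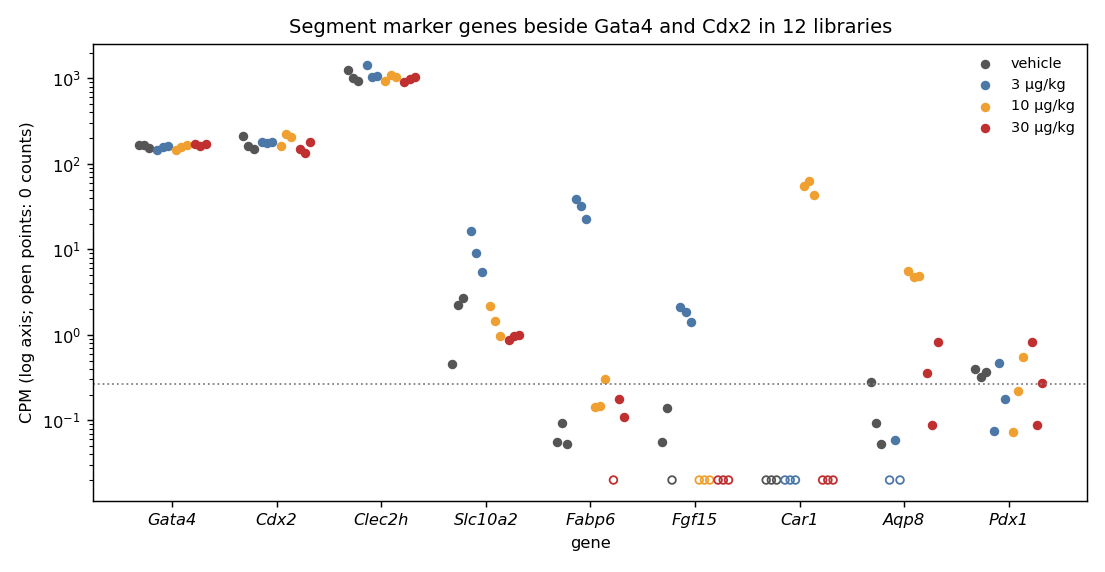
Level of 9 genes in each library, in CPM on a log axis, coloured by dose; open points at the foot are libraries with 0 counts, and the dotted line is 3 counts in the shallowest library. Gata4 (143 to 170.4 CPM) and Cdx2 (134 to 224 CPM) stay within a narrow band at every dose, while Fabp6 and Fgf15 are raised at 3 µg/kg and Car1 and Aqp8 at 10 µg/kg.

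All 7 regional factors were clearly expressed in every library. Gene levels were set against each other as CPM per kb of exon, from the GENCODE M21 exon length. Over the 12 libraries Hnf4g stood at 201 ± 12.4 and Hnf4a at 185 ± 17.7 CPM per kb (SD, n = 12). Cdx2 followed at 77.8 ± 11.9 (SD, n = 12), and Gata4 at 41.0 ± 2.32 CPM per kb. Cdx1 was at 35.8 ± 4.24, Gata6 at 19.7 ± 3.96 and Onecut2 at 4.87 ± 1.30 CPM per kb. The ranges of Hnf4g and Hnf4a overlapped, and so did those of Gata4 and Cdx1, so neither order within those pairs exceeded the spread of libraries. Between the other neighbours in this order no library of the lower gene reached the lowest library of the higher gene. These lengths take the exons of all transcripts of a gene together, and Onecut2, with 16234 bases of exon, is the longest.

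**Figure D2:**
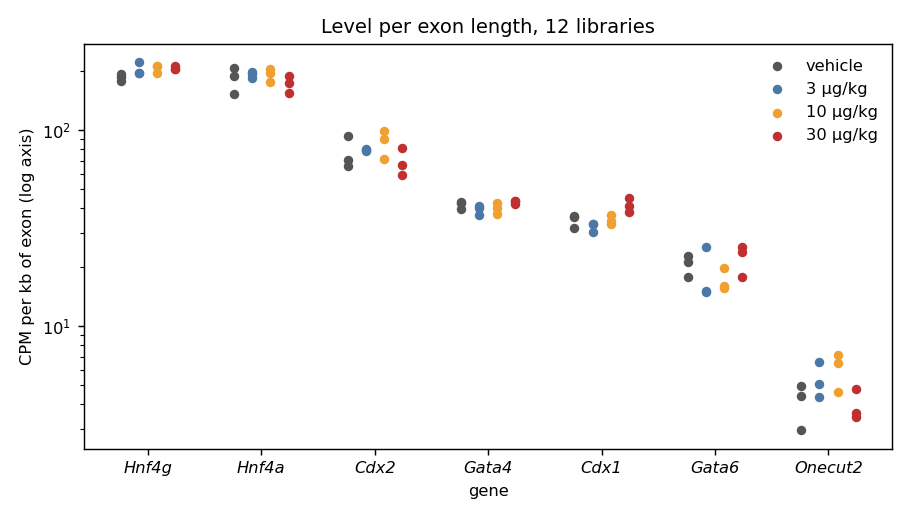
Level of each factor per exon length in 12 libraries, in CPM per kb on a log axis, coloured by dose and ordered by the mean. The ranges of Hnf4g and Hnf4a overlap, as do those of Gata4 and Cdx1, and Onecut2 lies lowest, at a mean of 4.87 CPM per kb.

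The genes lie on 5 chromosomes of GRCm38. Gata4 (ENSMUSG00000021944) is at chr14:63198922-63271692 on the minus strand, and Cdx2 (ENSMUSG00000029646) at chr5:147300805-147307270 on the minus strand. Hnf4a (ENSMUSG00000017950) is at chr2:163506808-163572910 and Hnf4g (ENSMUSG00000017688) at chr3:3508030-3658052, both on the plus strand. Gata6 (ENSMUSG00000005836), Cdx1 (ENSMUSG00000024619) and Onecut2 (ENSMUSG00000045991) are on chromosome 18. Exons of Gata6 overlap the antisense gene 1010001N08Rik, and since the strand setting of the counting is not given in the sources used here, reads of these genes cannot be told apart.

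The question put to the factors was whether TCDD moved any of them. None of the 7 was called at any dose, where a call was an adjusted p under 0.05 and a change of at least 1.5-fold in edgeR's quasi-likelihood test over all 15823 genes. The share of all genes called was 0.228%, 0.613% and 3.97% at the 3 rising doses, so that 0 of 7 is near the background. No factor was called for a slope over the 4 dose ranks or for any difference among the groups, where 3.29% and 6.78% of all genes were. At an unadjusted p under 0.05 there were 0, 1 and 1 of the 7 at the 3 doses, beside 11.4%, 15.9% and 21.6% of all genes. These were Onecut2 at 10 µg/kg and Cdx1 at 30 µg/kg. For the slope 1 of 7 (Cdx1) passed that mark beside 19.7% of all genes, and for any difference 2 of 7 (Cdx1 and Onecut2) beside 24.0%. DESeq2 and limma-voom also called 0 of 7 at each dose. The median log2 change of the 7 was 0.047, 0.075 and 0.043, beside 0.0017, -0.0096 and -0.016 over all genes tested. Cyp1a1, the receptor's classic target gene, rose by 5.54 (SE 0.53, adjusted p = 2.22e-04) on the log2 scale at 10 µg/kg and by 7.01 (SE 0.57, adjusted p = 2.31e-05) at 30 µg/kg in the same fit. Of 6 listed target genes of the receptor, 3 and 4 were called higher at these doses. At 3 µg/kg 0 of the 6 were called higher and 1 was called lower. They summed to 89.1 to 226 CPM at 3 µg/kg, against 79 to 93.6 CPM in vehicle. The 3 dose comparisons share the same 3 vehicle libraries.

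The intervals say how large a change these libraries leave room for. At 30 µg/kg the 95% interval of all 7 factors lay inside a 1.5-fold change in either direction. At 3 and at 10 µg/kg this held for 5 of 7, and the intervals of Gata6 and Onecut2 reached past it. Each interval covers 1 gene, with no allowance for the 7 looked at. In bulk tissue, fewer cells of a type and less RNA per cell cannot be told apart.

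**Figure D3:**
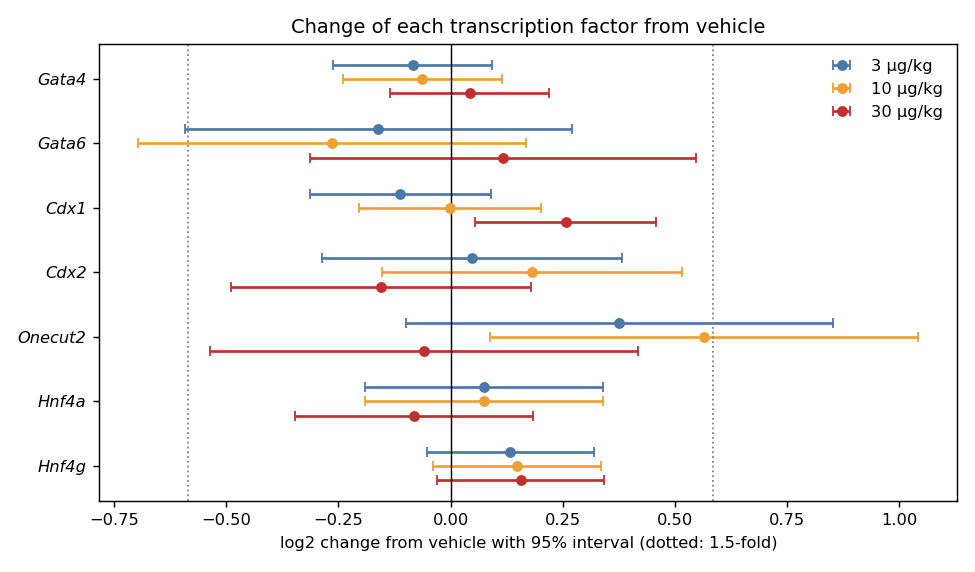
Log2 change of each factor from vehicle at 3, 10 and 30 µg/kg (points) with its 95% interval (bars) from the fit over all genes; dotted lines mark a 1.5-fold change. The intervals of Cdx1 at 30 µg/kg (0.05 to 0.46) and Onecut2 at 10 µg/kg (0.09 to 1.04) exclude 0, and every interval at 30 µg/kg lies between the dotted lines.

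Gata4, the zinc finger factor of upper and middle small intestine, was the steadiest of the 7. Vehicle libraries held 166, 168 and 154 CPM, those of 3 µg/kg 143, 157 and 159.8, those of 10 µg/kg 145, 156 and 166, and those of 30 µg/kg 170.4, 164 and 169 CPM. Each dose group overlapped with vehicle, and the highest library was only 1.19-fold above the lowest. The 3 libraries of 30 µg/kg were above those of 3 µg/kg. Its SD of log2 CPM over the 12 libraries was 0.083, where the median gene tested had 0.275, and 1.68% of genes tested had a smaller SD. The log2 change was -0.08 (95% interval -0.26 to 0.09) at 3 µg/kg, -0.06 (-0.24 to 0.12) at 10 µg/kg and 0.04 (-0.13 to 0.22) at 30 µg/kg. Adjusted p-values were 0.732, 0.748 and 0.814. In the 3 libraries with Fabp6 it was at 143 to 159.8 CPM, and in the 3 with Car1 at 145 to 166 CPM.

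Gata6, its paralogue along the whole small intestine, varied more. It was at 116, 139 and 148 CPM in vehicle libraries, and those of 3 µg/kg held 165, 98.5 and 97.5 CPM. Libraries of 10 µg/kg held 129, 105 and 102 CPM, and those of 30 µg/kg 155, 165 and 117 CPM. High and low libraries were found at each of the doses and the groups overlapped. The log2 change was -0.16 (95% interval -0.59 to 0.27) at 3 µg/kg, -0.26 (-0.70 to 0.17) at 10 µg/kg and 0.12 (-0.31 to 0.55) at 30 µg/kg, with adjusted p-values of 0.803, 0.539 and 0.786. The ratio of Gata6 to Gata4, per exon length, ran from 0.366 to 0.689 over the libraries, and both ends of that range were at 3 µg/kg.

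Cdx1, the CDX factor of crypts and of distal gut, came closest to a response. Vehicle libraries were at 63.9, 63.4 and 55.4 CPM, those of 3 µg/kg at 52.8, 58.3 and 58.0, those of 10 µg/kg at 58.0, 64.6 and 60.0, and those of 30 µg/kg at 67.3, 71.6 and 79.3 CPM. The 3 libraries of 30 µg/kg were above all 9 others. With 30 µg/kg the log2 difference from vehicle was 0.26 (SE 0.09, 95% interval 0.05 to 0.46), which is 1.19-fold, and it missed the threshold (edgeR, adjusted p = 0.130). Over the alternatives that adjusted p ran from 0.0469, with the clock score described below as a covariate, to 0.515, with the trend on exon length and GC content removed, where the log2 change was 0.12. At 3 and 10 µg/kg the log2 change was -0.11 (-0.31 to 0.09) and -0.0017 (-0.20 to 0.20). Over the whole range of dose ranks the slope amounted to 0.26 on the log2 scale (95% interval 0.03 to 0.49, adjusted p = 0.186).

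In the joint test over all 4 groups the adjusted p of Cdx1 was 0.0921. With DESeq2's likelihood ratio test it was 0.0285 and with the clock score as a covariate 0.0151, so that Cdx1 was called there. Markers of epithelial lineages were called at 30 µg/kg, beside 3.97% of all genes. Of 9 Paneth cell markers 8 were called higher, with a summed level of 2440 to 3440 CPM against 774 to 1190 in vehicle. Of 11 enteroendocrine markers 6 were called higher (279 to 325 against 187 to 216 CPM summed), and of 7 goblet cell markers 3 were. No marker of the Paneth, enteroendocrine or goblet lists was at 0 throughout. Among those with the greatest changes were Ang4, an antimicrobial ribonuclease, at a log2 change of 2.33 (adjusted p = 3.62e-04), and the hormone gene Cck at 1.09 (adjusted p = 0.0019). The 6 stem cell markers were not called, and none of 9 proliferation markers was called although all 9 were above 0, at a median of 0.54 on the log2 scale. At 3 and 10 µg/kg no Paneth marker was called. There 6 and 5 of the 9 had an unadjusted p under 0.05 in edgeR's test, beside 11.4% and 15.9% of all genes. The median log2 change of the 9 was 0.63 and 0.59. The part of any of these cell types in the Cdx1 value was not tested.

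Cdx2, the master homeodomain factor of the intestine, was at 211, 159.6 and 149 CPM in vehicle, and libraries of 3 µg/kg held 181, 177 and 179 CPM. Those of 10 µg/kg held 161, 224 and 204 CPM, and those of 30 µg/kg 150.4, 134 and 182 CPM. All dose groups overlapped with vehicle. Its log2 change was 0.05 (95% interval -0.29 to 0.38), 0.18 (-0.15 to 0.52) and -0.15 (-0.49 to 0.18) at 3, 10 and 30 µg/kg, and no adjusted p was under 0.593. Per exon length, the ratio of Cdx1 to Cdx2 was 0.391, 0.513 and 0.480 in vehicle and 0.578, 0.691 and 0.562 at 30 µg/kg. It lay between 0.372 and 0.465 in the 6 libraries of the lower doses. The 3 ratios at 30 µg/kg were above the 9 others, which is given as a description with no test. Of 8 genes known to need CDX2, such as the disaccharidases Lct and Sis, none was called at any dose. Their median log2 change was 0.035, -0.019 and -0.18, and none was called for the slope or for any difference among the groups. At an unadjusted p under 0.05 in edgeR's test there were 1, 2 and 2 of the 8 at the 3 doses. For the slope there were 3 of 8, and for any difference 1. The shares of all genes were 11.4%, 15.9%, 21.6%, 19.7% and 24.0% in that order.

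Onecut2 was the lowest of the 7 per kb of exon, though above Cdx1 in CPM, and had the largest ratio of the highest to the lowest library. Vehicle libraries held 81.0, 47.9 and 71.6 CPM, and those of 3 µg/kg 70.6, 107 and 82.7 CPM. With 10 µg/kg the levels were 75.1, 105 and 116 CPM, and with 30 µg/kg 58.6, 55.8 and 77.6 CPM. Groups overlapped at every dose, and the highest library was 2.43-fold above the lowest. With 10 µg/kg the log2 difference from vehicle was 0.57 (SE 0.22, 95% interval 0.09 to 1.04), and it missed the threshold (edgeR, adjusted p = 0.245). The lowest dose gave 0.38 (-0.10 to 0.85) and the highest -0.06 (-0.54 to 0.42). Any difference among the 4 groups had an adjusted p of 0.185. Its relative Onecut1 had 1 count over all 12 libraries.

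Hnf4a, the nuclear receptor of enterocyte lipid and brush border genes, was at 996, 908 and 736 CPM in vehicle, and libraries of 3 µg/kg held 961, 888 and 930.2 CPM. Those of 10 µg/kg held 849, 939.7 and 993 CPM, and those of 30 µg/kg 907, 745 and 842 CPM. The lowest and the highest of the 12 libraries were both vehicle libraries. Its log2 change was 0.07 (95% interval -0.19 to 0.34), 0.08 (-0.19 to 0.34) and -0.08 (-0.35 to 0.18), with adjusted p-values of 0.857, 0.802 and 0.750.

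Hnf4g, its partner in the epithelium, was at 492, 470.5 and 508 CPM in vehicle, and libraries of 3 µg/kg held 583, 513 and 517 CPM. Those of 10 µg/kg held 513, 558 and 559 CPM, and those of 30 µg/kg 541, 559.6 and 539 CPM. All 9 dosed libraries were above the 3 vehicle libraries, the nearest pair being 508 and 513 CPM. Such a lack of overlap on the higher side was seen for 8.58%, 11.9% and 14.2% of all genes at 3, 10 and 30 µg/kg, and for 1, 1 and 2 of the 7 factors, the last being Hnf4g and Cdx1. Hnf4g had log2 changes of 0.13 (95% interval -0.05 to 0.32), 0.15 (-0.04 to 0.33) and 0.16 (-0.03 to 0.34), with adjusted p-values of 0.586, 0.414 and 0.314. The 3 intervals include 0 and share the vehicle libraries. Of 8 genes that need HNF4, such as the apolipoproteins Apoa4 and Apob, none was called at any dose, and the median log2 change was 0.11, 0.10 and 0.14. For any difference among the 4 groups 1 of the 8 was called, the apolipoprotein gene Apoc3 (edgeR, adjusted p = 0.0296), beside 6.78% of all genes. In that test 3 of the 8 had an unadjusted p under 0.05, beside 24.0% of all genes. Apoc3 was at 450.1, 319 and 299 CPM in vehicle, at 209 to 300.4 CPM at 3 µg/kg, at 224 to 240.1 CPM at 10 µg/kg and at 329.5 to 444 CPM at 30 µg/kg. That call was lost in 6 of 12 fits without 1 library, all of them dosed ones (adjusted p up to 0.0839), and with the length and GC trend removed (0.116).

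**Figure D4:**
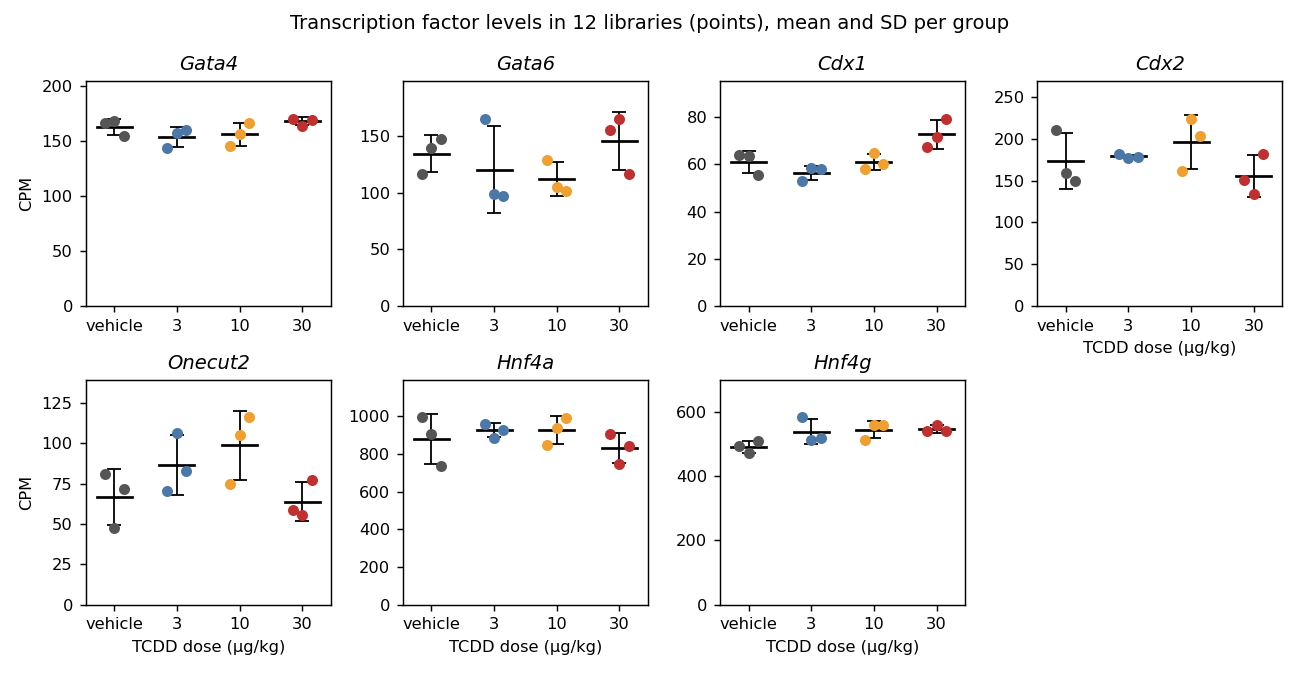
Level of each factor in CPM (linear axes from 0) in the 3 libraries of each dose (points), with the group mean (line) and SD (bars). Cdx1 is highest in the 3 libraries of 30 µg/kg (67.3 to 79.3 CPM), Hnf4g is lowest in the 3 vehicle libraries (470.5 to 508 CPM), and the groups of Gata4, Gata6, Cdx2, Onecut2 and Hnf4a overlap with vehicle at each dose.

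The spread of Gata6 and Onecut2 followed another reading of the same libraries. A clock score was taken per library as the mean z of 6 genes that peak with Dbp, an output gene of the circadian clock, less the mean z of 4 genes that peak with Arntl, its core activator. It was positive in 6 libraries (1.24 to 2.12) and negative in 6 (-2.27 to -0.976), with Dbp at 29.0 to 121 CPM in the former and 0.980 to 3.39 CPM in the latter. Arntl was at 5.51 to 8.71 and 42.3 to 64.5 CPM, respectively. Positive scores were found in 2, 1, 1 and 2 of the 3 libraries at vehicle, 3, 10 and 30 µg/kg.

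Gata6 was at 129 to 165 CPM in the libraries with a positive score and at 97.5 to 117 CPM in those with a negative score. Onecut2 went the other way, at 47.9 to 75.1 CPM with a positive and 77.6 to 116 CPM with a negative score. Neither gene overlapped between the sets. The same order within each of the 4 dose levels follows from this, since each level held libraries of both signs. Of all genes tested, 4.71% did not overlap between these sets of libraries. Cdx2 leaned the way of Onecut2 but overlapped (134 to 181 against 177 to 224 CPM), and Gata4 overlapped broadly (143 to 170.4 against 156 to 169 CPM). No test was made, since the sets come from the measured levels and not from a label. With the clock score in the fit, the SE of the Gata6 change at 10 µg/kg was 0.11 in place of 0.20, and the log2 change was -0.09 in place of -0.26. For Onecut2 at 10 µg/kg the log2 change was then 0.37 (adjusted p = 0.196).

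**Figure D5:**
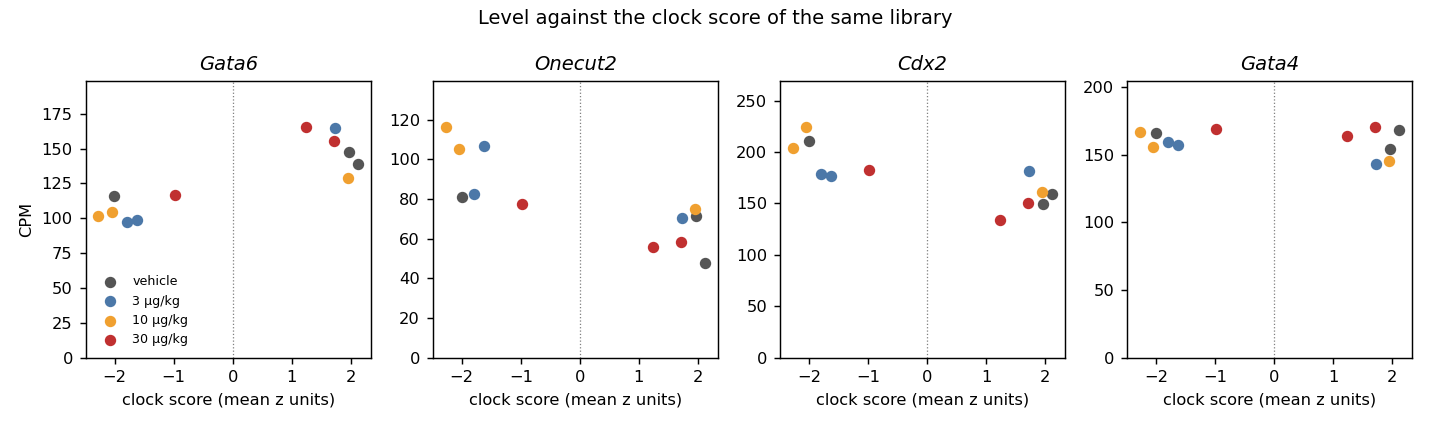
Level of Gata6, Onecut2, Cdx2 and Gata4 in CPM against the clock score of the same library (mean z units), 1 point per library, coloured by dose. The 6 libraries right of 0 hold more Gata6 and less Onecut2 than the 6 on the left, Cdx2 overlaps a little and Gata4 does not separate.

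The genes whose log2 CPM followed each factor most closely over the 12 libraries were taken from 11195 genes with a mean count of at least 50, by Pearson's r, as a description of libraries that share depth, dose and the clock reading above. Guca2b (r = 0.974) and Pdk2 (0.966) were among the genes nearest to Gata6. Onecut2 was followed by Rnft1 (0.933), Prkar2a (0.931) and Gfm2 (0.916). For Cdx1 they were Eif2b2 (0.967), Prrt1 (0.953) and 9530068E07Rik (0.933), and for Cdx2 Tmem19 (0.967), Kif3b (0.956) and Scamp2 (0.942). Gata4 had Psmd11, Gstp3 and Coa3 (0.880, 0.880 and 0.863). Hnf4a had Fpgt, Dhx8 and Rnf185 (0.919, 0.913 and 0.908), and Hnf4g had Sult1d1, Snx1 and Chmp5 (0.925, 0.921 and 0.908).

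Around the 7, 23 other transcription factors of gut were listed, of which 19 were tested. Foxa3, a forkhead factor of gut epithelium, was called higher at 30 µg/kg, at 17.8, 18.7 and 18.6 CPM against 12.1, 11.7 and 10.5 in vehicle (log2 change 0.68, SE 0.11, adjusted p = 0.00341). No other of the 19 was called at any dose, where 3.97% of all genes were called at 30 µg/kg. For any difference among the 4 groups 2 of the 19 were called, beside 6.78% of all genes. They were Foxa3 (adjusted p = 0.00937, and 0.0517 without 30 µg/kg replicate 3) and Klf5 (adjusted p = 0.0021), a factor of crypt epithelium. Klf5 was at 446 to 482 CPM at 30 µg/kg against 307 to 349 in vehicle, a log2 change of 0.51 (adjusted p = 0.00614) that is under 1.5-fold. Over the 19, the median log2 change at 30 µg/kg was 0.21. Gata5 (75.5 to 122 CPM) was present in every library. Of 39 Hox genes 6 passed the filter, and the 39 summed to 5.65 to 10.8 CPM, with Hoxb9 called at 10 µg/kg (adjusted p = 0.0389). That call was lost in each of 6 fits without 1 library of the 2 groups, with an adjusted p of 0.0624 to 0.172.

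Segment genes were read beside the share of all genes called. At 3 µg/kg 2 of 7 ileal genes were called, beside 0.228% of all genes. At 10 µg/kg 2 of 6 colonic genes tested were called, beside 0.613%. At 30 µg/kg 1 of 15 proximal and 1 of 6 colonic genes were called, beside 3.97%. For the slope each of these 3 lists held 1 call, beside 3.29%. For any difference among the groups 3 of 7 ileal, 3 of 6 colonic and 2 of 15 proximal genes were called, beside 6.78%. Of 15 genes high in proximal small intestine, led by Apoa4 (3779 to 6781 CPM) and Lct (2080 to 3831 CPM), only the iron exporter Slc40a1 was called at 30 µg/kg, at a log2 change of -1.06 (SE 0.22, adjusted p = 0.0134), and that call was lost without vehicle replicate 2 or 30 µg/kg replicate 3 (adjusted p up to 0.0588). Of the ileal list, Fabp6 (adjusted p = 3.91e-07) and Fgf15 (0.0323) were called at 3 µg/kg, Fgf15 not in 5 of 6 fits without 1 library (up to 0.170). Cubn was called for its slope over dose, at -2.23 on the log2 scale (adjusted p = 0.0274), lost in 4 of 12 fits without 1 library (up to 0.0922). Of the colonic list, Car1 (adjusted p = 4.64e-05) and Aqp8 (9.41e-04) were called at 10 µg/kg and kept the call in all 6 fits without 1 library. Aqp4, a gut water channel, was called at 30 µg/kg (1.00, adjusted p = 0.0327) and lost the call in all 6. In the same libraries Gata4, Gata6, Cdx2, Onecut2 and Hnf4a overlapped with vehicle at each dose. Hnf4g lay above the vehicle libraries at 3, 10 and 30 µg/kg, and Cdx1 did so at 30 µg/kg. Such a lack of overlap on the higher side was seen for 8.58%, 11.9% and 14.2% of all genes at these doses.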

How the data were processed

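The 12 libraries hold whole-number read counts per Ensembl gene, deposited by the authors with no normalization. Per the submitters' notes the reads were checked with FastQC 0.11.3, trimmed with Trimmomatic 0.33, aligned to GRCm38 with TopHat2 2.1.0 and SAMtools 1.2.0 and counted with HTSeq 0.6.1. The annotation release and strand setting are not given in the sources used here. Reads that HTSeq put in no gene, 60.3 to 64.6% of all, were left out. Identifiers were matched to GENCODE M21 for 45229 of 46078 genes, and the others held 0.749% of counts.

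Groups came from the labels, and replicate numbers only name libraries. Counts were filtered (filterByExpr), scaled by TMM and fitted in edgeR 4.0.16 (R 4.3.3) by quasi-likelihood over all 4 groups, with Benjamini-Hochberg adjustment over 15823 genes, an adjusted p under 0.05 and 1.5-fold for a call. The slope used dose ranks 0 to 3. CPM used TMM library sizes. On simulated 30 µg/kg data (15599 genes) 63% of 2-fold and 81% of 4-fold changes were recovered. Alternatives used DESeq2 1.42.0, limma 3.58.1, other scalings and filters, a clock score, a length and GC trend (lowess), and each library left out.

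The factors and all gene lists were chosen with earlier results of these data known. Of the listed genes, at most 4 per list that passed the call are named, and for each factor the 3 most correlated genes, with 1 of those of Gata6 not reported here. Genes of segment and cell lists at a trace level are named for their levels, chosen after their values were seen, as were Apoc3 and Klf5. The set of RefSeq promoter windows at hand held 2 of 7 factors. Replicates are described as biological, and p-values measure the spread between these samples.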

Additional observations from a re-analysis of the deposited data

How the results depend on the processing

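At each of the 3 doses and for the slope, 0 of 7 factors were called under every alternative run. For any difference among the 4 groups, DESeq2 and the clock score as a covariate each called 1, Cdx1, and the other alternatives called 0. The number of genes called in all moved by over 1.5 times as follows. At 3 µg/kg it was 36, and 71 without a filter, 23 with at least 10 counts in every library, 84 with DESeq2, 6 with the compared groups alone and 19 to 162 with 1 library left out (162 without 3 µg/kg replicate 1). At 10 µg/kg it was 97, and 215 without a filter, 262 with DESeq2 and 45 to 59 with 1 library left out. For any difference it was 1073, and 2143 with DESeq2, 2103 with the clock score and 562 to 1745 with 1 library left out. For the slope it was 520, and 297 to 640 with 1 library left out. Fewer samples enter a fit without a library; the cause of the other shifts was not tested.

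Factors whose log2 change was near 0 changed sign. With the length and GC trend removed, Gata4 was at 0.030 and 0.028 at 3 and 10 µg/kg, Cdx1 at 0.082 and 0.17, and Onecut2 at 30 µg/kg at 0.047. With the clock score Cdx2 at 3 µg/kg was at -0.034 and the slope of Onecut2 at -0.0062, and with the compared groups alone Cdx1 at 10 µg/kg was at 0.0012. With 1 library left out, Cdx1 at 10 µg/kg ran from -0.060 to 0.044, Cdx2 at 3 µg/kg from -0.068 to 0.20 and at 30 µg/kg from -0.28 to 0.019, Onecut2 at 30 µg/kg from -0.25 to 0.11, and Hnf4a from -0.058 to 0.16, -0.034 to 0.18 and -0.19 to 0.024 at 3, 10 and 30 µg/kg. The slopes ran from -0.048 to 0.19 for Gata6, -0.19 to 0.039 for Cdx2, -0.20 to 0.22 for Onecut2 and -0.17 to 0.017 for Hnf4a. None of these passed the threshold. No paired analysis was possible because the labels number no replicates, and the numbers used here, given in the order of the samples within a group, only name libraries. With 3 libraries a group, the intervals of Gata6 and Onecut2 at 3 and 10 µg/kg reached past 1.5-fold, so those libraries leave room for a change of that size.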
